A study of Drosophila melanogaster with 16 samples.

Results

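The transcripts described here were those of the fly genome (build dm6) whose small RNA was concentrated in males. Members were selected on the measured values: a transcript needed a mean count of at least 20 over the 16 libraries, and its mean percent of the dm6 counts over the 8 male libraries had to be at least 4 times that over the 8 female libraries. The rule found 86 members among 2303 counted transcripts, of which 1030 passed the limit on the mean count. All 86 also passed the lower limit of 5 counts on average used for testing, which 1566 transcripts passed. Because the sex difference chose the members, it is described below without a test, and the tests concern age and dFOXO in males.

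Total small RNA came from whole adult flies of the wDah strain, an outbred Dahomey background carrying a white mutation. Wildtype here means this strain, and dFOXO-null means wDah carrying foxo Δ94, a large deletion in the gene of the transcription factor dFOXO made by imprecise P element excision and backcrossed to wDah. Males and females of both genotypes were collected young, at 5 days in replicate 1 and 6 days in replicate 2, and old, at 31 days, with 2 libraries for each of 8 conditions and 40 flies in each library. The sexes were housed together, and the young and old flies of a genotype and replicate were siblings.

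Most of the members are known from the male germline. The Stellate genes on the X chromosome encode a protein related to the regulatory subunit of casein kinase 2, and its overproduction in the testis forms crystals and impairs fertility. The Suppressor of Stellate repeats, Su(Ste), lie on the Y chromosome, are related in sequence to Stellate and give rise to small RNAs, mainly piRNAs, that silence Stellate in the testis. A further set of Y repeats is related to CG12717 (pirate), a SUMO protease gene on the X chromosome, and testis piRNAs with homology to it are known from the Y. Several clusters of young miRNA genes, among them those of mir-972 to mir-979 and mir-982 to mir-984 on the X, are expressed mostly in the testis. piRNAs are longer than miRNAs and siRNAs, and the authors filtered the longer reads out before mapping, so the values below describe the short reads on these loci and not the full piRNA content.

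Levels are given as CPM, the count divided by the library's total of dm6 counts and multiplied by 1000000. The library totals ran from 394784 to 6166465 dm6 counts. All valid alignments of a read with up to 1 mismatch were kept, and it is not stated whether strand was used, so transcripts of 1 repeat family share reads, a transcript and its antisense partner cannot be told apart, and a sum over a family counts some reads more than once. In 7 sets of 2 members, 14 in all, the counts were equal in every library: mir-983-1 and mir-983-2, mir-4966-1 and mir-4966-2, Ste:CG33245 and Ste:CG33239, and 4 pairs of Y pseudogenes. The 86 members thus gave 79 distinct rows of counts. In whole flies, fewer cells of a type and less RNA per cell cannot be told apart.

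Of the 86 members, 52 were on the Y chromosome and 24 on the X, with 3 on 2L, 4 on 2R, 1 on 3L and 2 on 3R. The Y and X together held 88.4% of the members and 22.1% of the 1030 transcripts over the limit on the mean count. Of the 59 Y transcripts over that limit, 52 were members (88.1%). The members fell into 24 Su(Ste) repeats, 13 Stellate transcripts, 27 Y pseudogenes, 1 long non-coding RNA of the Y (lncRNA:CR40629), 18 miRNA hairpins and 3 protein-coding genes outside the Stellate family, namely scpr-A, scpr-B and Rae1. The members together took 3.04% to 9.73% of the dm6 counts of a male library and 0.0752% to 0.567% of those of a female library.

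One female library stood apart from the other 7 and is named before the results for that reason. In wildtype young female replicate 1, the Y pseudogenes and lncRNA:CR40629 together held 294 counts, which was 4.48% of their level in the male library of the same condition and replicate. The other 7 female libraries held 2 to 32 such counts, or 0.0336% to 0.557% of the level of their male counterparts. Stellate stood at 4.54% of its male level in that library and at 0% to 1.02% in the other 7. The hairpins mir-973, mir-974 and mir-976 together stood at 3.95%, against 0% to 1.77% in the other 7. The part of this library in the female means was measured by leaving it out: the male to female ratio of Su(Ste):CR42431 was 179 with it and 798 without it, and that of mir-976 was 92.9 with it and 421 without it. The number of members was 86 without this library as well.

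**Figure D1:**
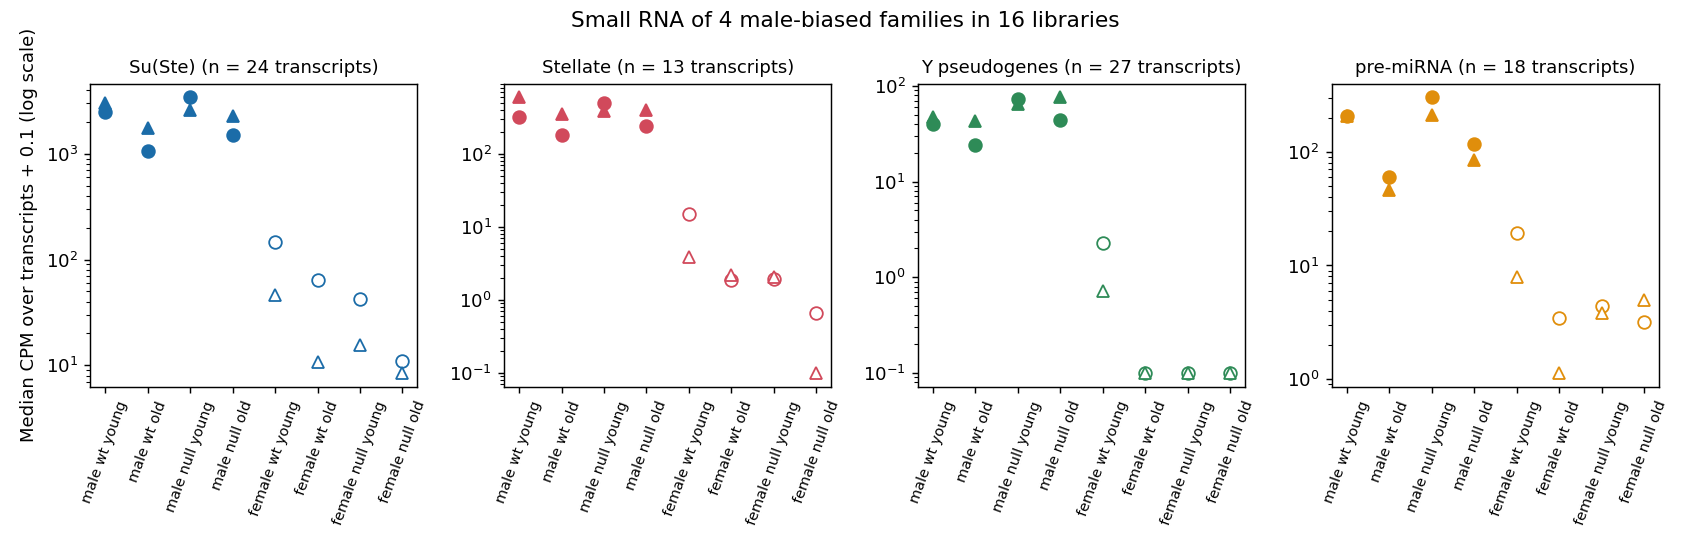
Median CPM over the transcripts of each of 4 families, plus 0.1, on a log scale for each of the 16 libraries (filled symbols, males; open symbols, females; circles, replicate 1; triangles, replicate 2; wt, wildtype; null, dFOXO-null). All male libraries lie above all female libraries in each family, and wildtype young female replicate 1 is the highest female library in all 4.

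The values of 80 members did not overlap between the sexes, every male library being above every female library, and 7.86% of the 1030 transcripts over the limit on the mean count had such values. The count of members only restates the rule. The 6 that overlapped were mir-263b, both copies of mir-983, mir-961, mir-2498 and Rae1. Without wildtype young female replicate 1 the copies of mir-983 did not overlap either, and the number was 82. At the limit itself, the members with the smallest ratios of the male to the female mean were Su(Ste):CR42416 (5.33), mir-990 (5.51) and mir-263b (5.97). Just outside stood the pseudogene CR14033 (3.80), mir-963 (3.57), a hairpin of the mir-959 cluster, and mir-927 (3.56). A further 8 transcripts with 5 to under 20 counts on average had ratios of at least 4, among them mir-972 (63.4), mir-9369 (22.0), the seminal fluid protease inhibitor gene Acp62F (104) and the Y pseudogenes CR46159 and CR46183 (141 each).

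The Su(Ste) repeats carried most of these counts, with 2.37% to 7.73% of the dm6 counts of a male library and 0.0337% to 0.410% of a female library. These sums count reads shared by several repeats more than once. The highest male mean of a single repeat was 2650 CPM, and that of mir-263b was 5013 CPM. Of the 24 members, 21 lie in an array on the Y chromosome (chrY:869892-1040412) and 3 lie apart from it, Su(Ste):CR42429 (chrY:2559809-2561503), Su(Ste):CR42431 (chrY:2562678-2563924) and Su(Ste):CR42424 (chrY:2593622-2595311), all annotated as non-coding RNA. The annotation places 10 on the plus and 14 on the minus strand, with 755 to 1848 exonic bases. Per length, their male means ran from 383 to 2810 CPM per kb with a median of 1570, against 607 CPM per kb for the median Stellate transcript and 89.9 for the median Y pseudogene.

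Su(Ste):CR42431 is given as an example, with a ratio of the male to the female mean of 179 beside a family median of 49.2. It stood at 2882 and 3405 CPM in young wildtype males, 1259 and 2052 in old wildtype males, 4052 and 2939 in young dFOXO-null males, and 1775 and 2556 in old dFOXO-null males. In females it stood at 93.8 and 6.84 CPM in young wildtype, 4.25 and 2.07 in old wildtype, 8.09 and 0 in young dFOXO-null, and 1.69 and 0 in old dFOXO-null flies. The lowest male library was thus far above the highest female library. All 4 old male libraries were below all 4 young ones, as for 21 of the 24 repeats. Over the 8 male libraries the log2 levels of the repeats ran in parallel, with a median Pearson's r of 0.991 over pairs of repeats (lowest 0.788), a description in which pairs share reads and libraries.

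In females the repeats spread over a wider range of levels than in males. A line drawn at 10 CPM after their values were seen divides them for description only, since steps of like size lie above it. Without wildtype young female replicate 1, 9 repeats had female means of 1.56 to 5.95 CPM and 15 had female means of 12.2 to 128 CPM, while their male means spanned 1289 to 2650 and 382 to 2636 CPM, respectively. The first set included Su(Ste):CR42431 and Su(Ste):CR42422 (chrY:869892-871230), and the second included Su(Ste):CR42425 (chrY:1033831-1035493), which had the highest female mean of the Su(Ste) repeats, 128 CPM. With all 8 female libraries the ratios of the male to the female mean were 145 to 193 in the first set and 5.33 to 83.9 in the second, and without wildtype young female replicate 1 they were 446 to 1196 and 6.60 to 147.

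The 3 Su(Ste) repeats that did not pass the rule had female levels within the range of the second set. Su(Ste):CR42421, Su(Ste):CR42427 and Su(Ste):CR42415, of 692, 500 and 727 exonic bases, each had a mean of 57.7 CPM over the same 7 female libraries, and their counts were equal to each other in 7 of the 8 female libraries. In males they had means of 62.4, 21.4 and 48.5 CPM, and their counts were equal in 0 of the 8 male libraries. Their female level was close to that of the member Su(Ste):CR42416, 57.9 CPM, which lies next to an annotated insertion of the hoppel transposon. Of the members, Su(Ste):CR42407, Su(Ste):CR42417, Su(Ste):CR42424, Su(Ste):CR42428 and Su(Ste):CR45796 overlap annotated hoppel insertions. Whether reads of that transposon made up the female counts was not tested, since the tables give no position within a transcript.

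**Figure D2:**
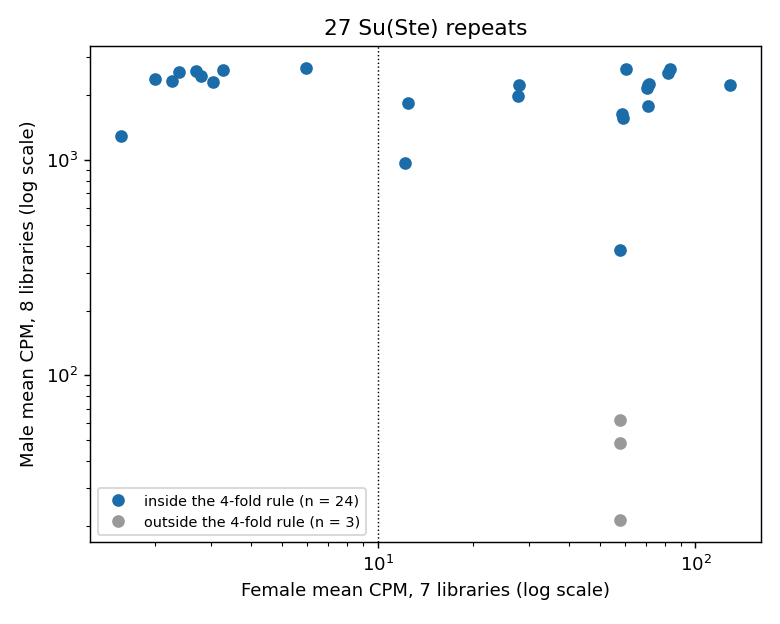
Male mean CPM over 8 libraries (vertical, log scale) against female mean CPM over 7 libraries without wildtype young female replicate 1 (horizontal, log scale) for the 27 Su(Ste) repeats, blue inside and grey outside the rule. To the left of the dotted line at 10 CPM lie 9 repeats, and to the right 15 members and the 3 repeats outside the rule, which share a female mean of 57.7 CPM.

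The Stellate transcripts, the targets of Su(Ste) in the testis, also had short reads counted on them. The 13 members were Ste12DOR (chrX:14000210-14000889) and 12 tandem copies (chrX:14046772-14061817), all annotated as protein coding. They took 0.228% to 0.738% of the dm6 counts in males and 0% to 0.0177% in females, and their ratios of the male to the female mean were 103 to 121, or 160 to 228 without wildtype young female replicate 1. Ste:CG33237 (chrX:14059434-14060157, minus strand) stood at 323 and 589 CPM in young wildtype males, 183 and 348 in old wildtype males, 489 and 387 in young dFOXO-null males, and 237 and 398 in old dFOXO-null males. The old libraries overlapped the young ones, since old wildtype replicate 2 (348 CPM) was above young wildtype replicate 1 (323 CPM). In dFOXO-null replicate 2 the level was about the same at both ages. In females the same copy ran from 0 to 15.2 CPM, with wildtype young female replicate 1 the highest and 3.73 CPM the next. Over the 8 male libraries, the median log2 level of Stellate ran with that of Su(Ste) with Pearson's r = 0.92, a description across libraries that share their totals, and Stellate and Su(Ste) may share reads.

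The Y pseudogenes were the members with the fewest female reads. The 27 members lie between chrY:3060612 and chrY:3273532, 14 on the plus and 13 on the minus strand, and RefSeq names 26 of them as related to CG12717, all but CR41423. CG12717 itself was not among the counted transcripts. In 8 of them the annotated span overlaps another member on the opposite strand, as for CR46176 and CR46175. They took 0.0772% to 0.229% of the dm6 counts of a male library, while in the 7 female libraries other than wildtype young female replicate 1 their summed share was at most 0.000933%. CR46279 (chrY:3250355-3251252), with the highest male mean of the set per length (135 CPM per kb), stood at 98.8 and 127 CPM in young wildtype males, 61.9 and 95.5 in old wildtype males, 161 and 160 in young dFOXO-null males, and 108 and 160 in old dFOXO-null males. It had 9 counts in wildtype young female replicate 1 and 0 or 1 in each other female library. Of the 27, 13 had no count in 7 of the 8 female libraries, in each case those other than wildtype young female replicate 1, and a further 13 had none in 4 to 6. CR46152 was the exception, with reads in all 8 female libraries, from 0.562 to 6.06 CPM.

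The other non-coding RNA of the Y, lncRNA:CR40629 (chrY:1122988-1123872, plus strand), lies beyond the Su(Ste) array. It stood at 230 and 440 CPM in young wildtype males, 125 and 260 in old wildtype males, 277 and 401 in young dFOXO-null males, and 196 and 367 in old dFOXO-null males. In females it had 51 counts in wildtype young female replicate 1 and 0 to 4 in the other libraries. Replicate 2 was higher than replicate 1 in every male condition.

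Of the 18 miRNA hairpins, mir-263b stood apart by its level per length, 55697 CPM per kb over the male libraries against 206 to 6389 for the others. This hairpin (chr3L:15843406-15843495), which together with mir-263a protects cells of sense organs from apoptosis during development, gave 4213 and 12569 CPM in young wildtype males, 2050 and 3771 in old wildtype males, 5019 and 6305 in young dFOXO-null males, and 2068 and 4106 in old dFOXO-null males. In females it ran from 103 to 2858 CPM, so the sexes overlapped, and replicate 2 was higher than replicate 1 in all 8 conditions. Its ratio of the male to the female mean, 5.97, was below those of the X-linked hairpins described next. All 4 old male libraries were below all 4 young ones.

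The hairpins of the X chromosome made up 2 clusters. The first spans 7.59 kb on the plus strand (chrX:19551528-19559120) and holds mir-973, mir-974, both copies of mir-4966, mir-975, mir-976 and mir-977, with ratios of the male to the female mean from 46.9 to 287, or 114 to 1121 without wildtype young female replicate 1. mir-976 had the highest male mean of the cluster per length (3889 CPM per kb) and stood at 625 and 413 CPM in young wildtype males, 101 and 135 in old wildtype males, 948 and 397 in young dFOXO-null males, and 219 and 180 in old dFOXO-null males. In females mir-976 stood at 26.2 CPM in wildtype young replicate 1 and at 0 to 2.49 CPM in the rest. The second cluster spans 2.93 kb on the minus strand (chrX:4365806-4368735) and holds mir-982, both copies of mir-983 and mir-984, with ratios of 9.36 to 14.2. mir-983-1 stood at 1029 and 622 CPM in young wildtype males, 248 and 143 in old wildtype males, 1319 and 555 in young dFOXO-null males, and 478 and 258 in old dFOXO-null males. Females had 8.97 to 155 CPM of mir-983-1, and the overlap with the lowest male library (143 CPM) rested on wildtype young female replicate 1, since the next female library had 76.7 CPM.

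Of the autosomal clusters, mir-959, mir-960 and mir-961 lie within 0.34 kb on 2L (chr2L:5640940-5641279), within the span of DIP-theta on the other strand. Their cluster is known for a daily rhythm of expression in the adult head fat body. mir-959 stood at 254 and 423 CPM in young wildtype males, 92.4 and 93.4 in old wildtype males, 463 and 394 in young dFOXO-null males, and 214 and 137 in old dFOXO-null males, and at 1.38 to 50.3 CPM in females. On 2R, mir-991 (chr2R:20585200-20585295) and mir-2498 (chr2R:20584709-20584820) are neighbours on the minus strand. mir-991 stood at 146 and 50.6 CPM in young wildtype males, 32.6 and 25.5 in old wildtype males, 174 and 106 in young dFOXO-null males, and 43.3 and 22.8 in old dFOXO-null males. mir-2498, by contrast, stood at 25.7 and 33.2, 10.4 and 47.7, 34.7 and 17.6, and 29.2 and 83.6 CPM in the same order of conditions, with no order of the ages shared by the replicates.

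The mature arms had differing counts relative to their hairpins. Both arms were at hand for both copies of mir-983 and for mir-959, mir-960 and mir-961. For the other hairpins the other arm was not at hand, so their arms were not compared. In the table of reads mapped to mature miRNAs, the leading or only arm at hand was set against its hairpin. It had at least 80% as many male counts for 10 of the 18 hairpins and less for 8. miR-991-3p had 96.8% as many counts over the 8 male libraries as its hairpin had in the dm6 table, miR-984-5p 95.3%, miR-2498-5p 95.3%, miR-976-3p 94.1% and miR-983-5p 84.3%. Of the 8 with less, miR-974-5p had 35.3%, miR-959-3p 52.1%, miR-973-5p 53.6%, miR-982-5p 56.4%, miR-263b-5p 59.0%, miR-975-5p 62.8% and miR-990-5p 72.1%. For mir-960 the arms were closer to each other, miR-960-5p at 25.6% and miR-960-3p at 37.3%. These tables hold the same libraries, so the mature counts are another view of the same reads.

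The 3 remaining members were low. scpr-A (chr3R:11241183-11242120) and scpr-B (chr3R:11240041-11240991) are adjacent genes of cysteine-rich secretory proteins related to sperm-coating proteins, transcribed in opposite directions, with male means of 23.7 and 25.1 CPM per kb. Rae1 (chr2R:21658770-21660007), which encodes a nucleoporin-associated mRNA export factor needed in spermatogenesis, had 14.6 CPM per kb. The annotated end of Rae1 overlaps ND-B12 on the other strand, and scpr-B overlaps CG31388.

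Lists of genes of known male and female tissues were examined in the same table. Of the list of the Y chromosome with the Stellate genes, 41 transcripts were in the table, all with a mean count of at least 20, and 37 were members. Of the list of testis and sperm genes 12 were in the table, 3 passed the limit of 20 counts, and scpr-A and scpr-B were members. The third over the limit, bol, went the other way, with means of 4.63 CPM in males and 124 CPM in females. No transcript of the other lists was a member: 3 transcripts of accessory gland genes, 2 hairpin RNA loci, 5 of dosage compensation and sex determination, 8 of ovary and eggshell genes and 4 of muscle and mitochondria were in the table. Of these, 0, 2, 2, 0 and 1, respectively, had a mean count of at least 20, so most could not have been members. Over that limit, the male and female means were 35090 and 31531 CPM for hpRNA:CR46342 and 31.2 and 15.4 CPM for hpRNA:CR32207. They were 3.50 and 28.0 CPM for lncRNA:roX1, 11.6 and 15.6 CPM for msl-3 and 9.38 and 16.4 CPM for Act57B. Outside the rule, the other Y transcripts over 20 counts were WDY (12.3 CPM in males and 19.1 in females), the 3 Su(Ste) repeats named above, and the pseudogenes CR41507, CR41508 and CR41509, whose female means of 96.5, 96.5 and 121 CPM were above their male means of 10.3, 10.3 and 14.8 CPM.

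The first comparison asked how these small RNAs differed between young and old males. Nearly all members had lower CPM in old males, the hairpins by most: over both genotypes the median log2 difference of the 18 hairpins was -1.56, that of the 24 Su(Ste) repeats -0.81, that of the 13 Stellate transcripts -0.63 and that of the 27 Y pseudogenes -0.26. Over all 86 members the median was -0.63, with 84 below 0 and mir-975 and mir-2498 above it, beside a median of 0.36 over all 1566 transcripts tested. The composition of the libraries moved with age: rRNA took 8.09% to 19.2% of the dm6 counts in young males and 19.2% to 32.8% in old males, and miRNA hairpins took 35.9% to 59.9% and 22.3% to 36.3%. All miRNA hairpins together, members included, thus also fell, from a median of 50.3% in young to 23.5% in old males. Hairpins outside the members were not compared separately. The part of the shift in composition in the members' differences was measured with other totals. Per read on miRNAs and transposons the median of the members was 0.29 beside 1.29 over all transcripts, and Su(Ste) (0.12), Stellate (0.29) and the Y pseudogenes (0.66) had medians above 0, while the hairpins stayed below it (-0.65). With TMM factors the median of the members was -1.38 beside -0.30 over all transcripts, and with spike-in reads as the total it was -3.07 beside -1.96, with all 86 members below 0 on both scales. At an unadjusted p under 0.05 in edgeR there were 2 members per read on miRNAs and transposons, 56 with TMM factors and 83 with spike-in reads. Of all 1566 transcripts, 574, 238 and 554 were under that limit on these 3 scales, in either direction. No member passed the adjusted threshold on these scales, beside 267, 2 and 1 of all transcripts. With all totals tried, the members' median lay 0.99 to 1.11 below that of all transcripts tested.

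In the edgeR quasi-likelihood test, no member passed an adjusted p of 0.05 for age in wildtype males (0% of the 1566 transcripts passed), in dFOXO-null males (0%) or over both genotypes (0.702%). At an unadjusted p under 0.05 there were 10, 4 and 15 of the 86 members, respectively, all lower in old males. Of all 1566 transcripts, 236, 93 and 298 were under that limit, in either direction. In wildtype males the smallest p-values were those of mir-959, with a log2 difference of -1.86 (SE 0.58, adjusted p = 0.237), and mir-960, with -1.83 (SE 0.62, adjusted p = 0.287). In dFOXO-null males they were those of mir-991, with -2.04 (SE 0.82, adjusted p = 0.716), and mir-961, with -1.84 (SE 0.79, adjusted p = 0.716). Over both genotypes they were those of mir-959, with -1.57 (SE 0.41, adjusted p = 0.102), and mir-961, with -2.06 (SE 0.56, adjusted p = 0.108).

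The young and old flies of a genotype and replicate were siblings, and with the sibling stock as a block (edgeR) 6 members passed in wildtype males and 13 over both genotypes, all of them hairpins and all lower in old males. Among all transcripts 0.894% and 1.72% passed in that direction, and 177 and 222 of the 1566 passed in either direction. The 6 in wildtype males were mir-959, mir-960, mir-961, mir-982 and both copies of mir-983. The 13 over both genotypes added mir-263b, mir-973, mir-976, mir-984, mir-991 and both copies of mir-4966. The blocked log2 differences over both genotypes were -2.14 for mir-961 (SE 0.43, adjusted p = 0.00988), -1.82 for mir-976 (SE 0.45, adjusted p = 0.0116), -1.70 for mir-983-1 (SE 0.33, adjusted p = 0.00872), -1.58 for mir-959 (SE 0.36, adjusted p = 0.00988) and -1.17 for mir-263b (SE 0.37, adjusted p = 0.0437). Over the 17 alternatives run, the edgeR and DESeq2 adjusted p over both genotypes ranged from 0.00442 to 0.448 for mir-961, from 0.00269 to 0.448 for mir-976, from 0.00400 to 0.448 for mir-983-1, from 0.000286 to 0.448 for mir-959 and from 0.000694 to 0.745 for mir-263b. DESeq2, which also scales by its own size factors, called 6 members in wildtype males (1.02% of all transcripts were called lower) and 30 over both genotypes (5.62%), all lower in old males. The 30 were 15 hairpins, the 13 Stellate transcripts, Su(Ste):CR42432 and CR46279.

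**Figure D3:**
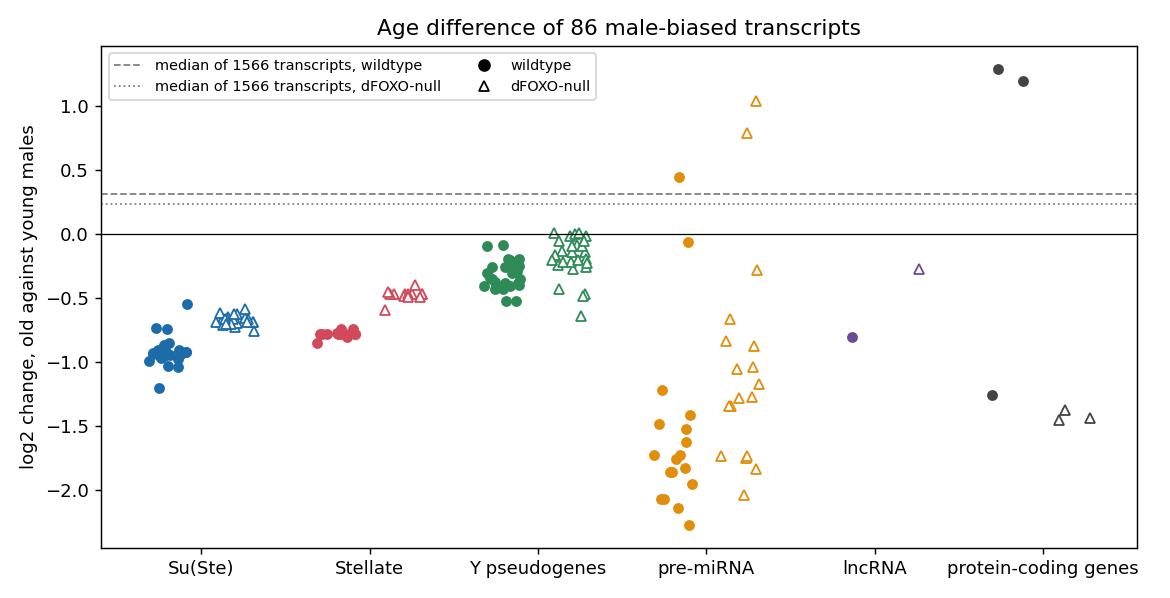
Log2 difference of old against young males (vertical) from the edgeR fit for each of the 86 members by family, filled circles in wildtype and open triangles in dFOXO-null males, with the medians of all 1566 tested transcripts as dashed and dotted lines. Nearly all members lie below those medians, with the hairpins lowest and the Y pseudogenes nearest to 0, and scpr-A and scpr-B above 0 in wildtype and below it in dFOXO-null males.

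In the 4 sibling pairs of males, a member was lower in the old sibling of all 4 pairs in 46 of 86 cases (53.5%), beside 8.94% of all transcripts tested. These were all 24 Su(Ste) repeats, 14 of 18 hairpins, 3 of 13 Stellate transcripts, 3 of 27 Y pseudogenes, lncRNA:CR40629 and Rae1. All 4 old libraries lay below all 4 young ones for 34 members (39.5%), 21 of them Su(Ste) repeats and 13 hairpins, beside 4.21% of all transcripts. Since the members of a family share reads, these counts hold fewer independent measurements than members. The ratio of the old to the young CPM in the pairs was 0.235, 0.165, 0.311 and 0.227 for mir-961, 0.161, 0.326, 0.231 and 0.453 for mir-976, and 0.437, 0.603, 0.438 and 0.870 for Su(Ste):CR42431, in the order of wildtype replicates 1 and 2 and dFOXO-null replicates 1 and 2. It was 0.627, 0.749, 0.668 and 0.999 for CR46279. The dFOXO-null replicate 2 pair had the ratio nearest to 1 for mir-976, Su(Ste):CR42431 and CR46279, and for Ste:CG33237, where it was 1.03.

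Ratios within a library do not depend on its total. The counts of mir-976 over those of Su(Ste):CR42431 were 0.217 and 0.121 in young and 0.0799 and 0.0657 in old wildtype males, and 0.234 and 0.135 in young and 0.124 and 0.0704 in old dFOXO-null males. The ratio was lower in the old sibling of each pair, although the ages overlapped across pairs. The counts of CR46279 over those of Su(Ste):CR42431 were 0.0343 and 0.0374 in young and 0.0492 and 0.0465 in old wildtype males, and 0.0398 and 0.0543 in young and 0.0607 and 0.0624 in old dFOXO-null males, higher in the old sibling of each pair. Other members had no direction shared by the pairs: the counts of mir-263b over those of Su(Ste):CR42431 went from 1.46 to 1.63 and from 3.69 to 1.84 in wildtype, and from 1.24 to 1.17 and from 2.15 to 1.61 in dFOXO-null males. For Ste:CG33237 the ratio was higher in the old sibling of 3 pairs and lower in wildtype replicate 2 (0.173 in young and 0.170 in old males).

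Not every hairpin followed that order. mir-975, of the same X cluster as mir-976 and mir-973, stood at 19.3 and 28.8 CPM in young and 27.2 and 38.2 in old wildtype males, and at 31.0 and 13.8 in young and 19.0 and 63.3 in old dFOXO-null males, with a log2 difference over both genotypes of 0.62 (SE 0.60, edgeR adjusted p = 0.629). mir-974 was lower in the old sibling of 3 pairs, and mir-977 likewise. As a share of the reads on mature miRNAs and transposons, miR-961-5p of old males had 0.384 times the mean of young males, miR-976-3p 0.482 times, miR-991-3p 0.476 times and miR-983-5p 0.615 times. On this scale miR-263b-5p had 0.983 times, miR-984-5p 0.771 times and miR-975-5p 4.07 times the mean of young males. For miR-975-5p the ages overlapped, with 0.000349% to 0.00352% in old and 0.000290% to 0.000609% in young males.

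**Figure D4:**
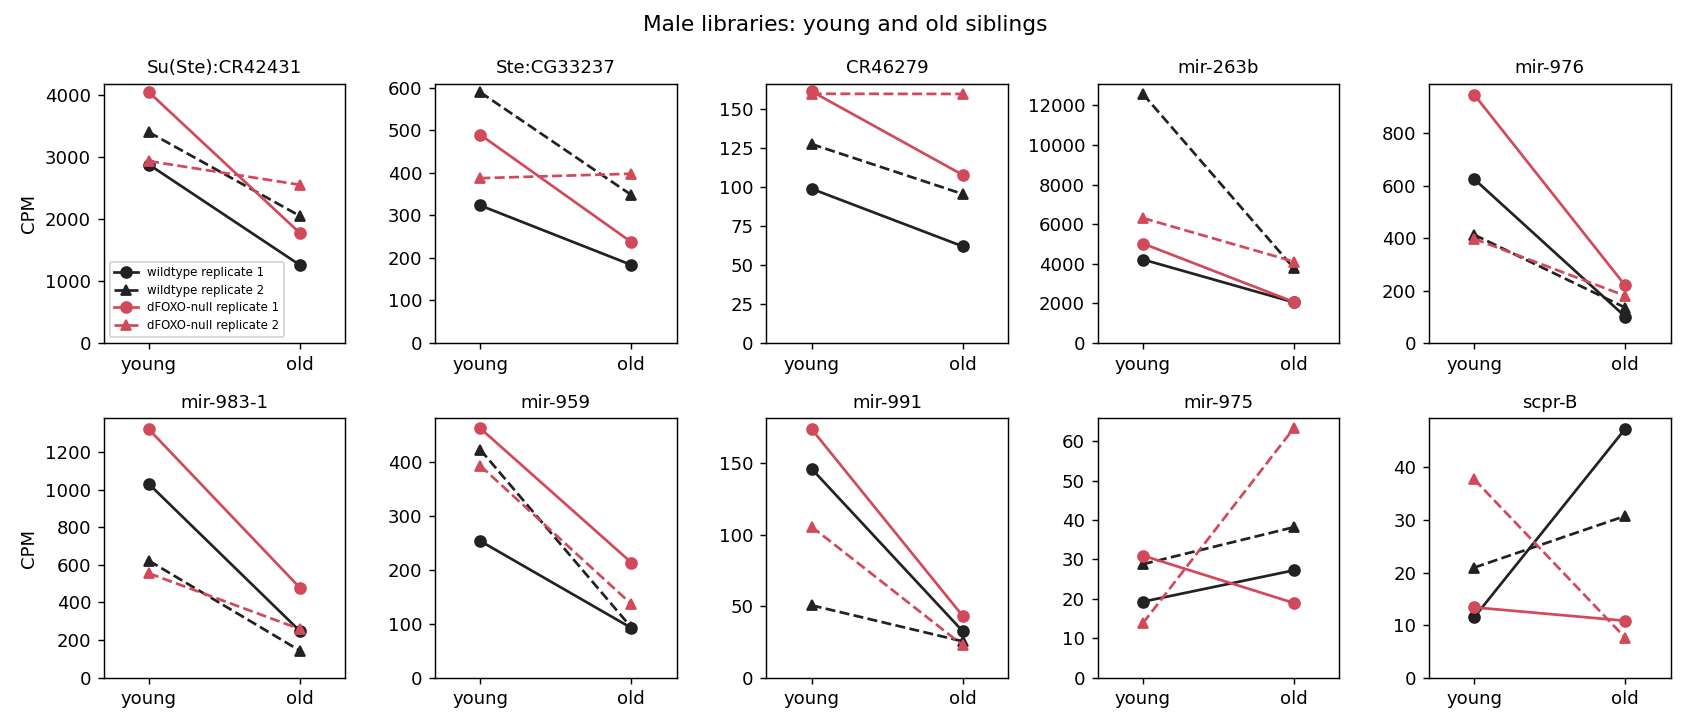
CPM (vertical, linear from 0) of 10 members in young and old males, with a line for each of the 4 sibling pairs (black, wildtype; red, dFOXO-null; solid with circles, replicate 1; dashed with triangles, replicate 2). Every line slopes down for mir-263b, mir-976, mir-983-1, mir-959 and mir-991, the 4 lines of mir-975 share no direction, and those of scpr-B slope up in wildtype and down in dFOXO-null males.

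The second comparison asked how these small RNAs differed between dFOXO-null and wildtype males. Over both ages the median log2 difference of dFOXO-null against wildtype males was 0.37 over the 86 members and -0.02 over all 1566 transcripts, with medians of 0.59 for the Y pseudogenes, 0.47 for the hairpins, 0.28 for Su(Ste) and 0.10 for Stellate. No member passed the edgeR test in young males (0.639% of all transcripts passed), in old males (0%) or over both ages (1.72%). In these comparisons 0, 2 and 0 members had an unadjusted p under 0.05, beside 66, 127 and 134 of all 1566 transcripts. DESeq2 called 0 members in each of these 3 comparisons, beside 19, 18 and 23 of all transcripts. Its unadjusted p was under 0.05 for 0, 3 and 9 members, beside 46, 114 and 138 of all transcripts. The smallest p-values over both ages were those of mir-959, with a log2 difference of 0.63 (SE 0.40, edgeR adjusted p = 0.805), and mir-960, with 0.66 (SE 0.42, adjusted p = 0.805). In young males they were those of Rae1, with 0.85 (SE 0.81, edgeR adjusted p = 1), and CR41423, with 0.83 (SE 0.79, adjusted p = 1).

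All 27 Y pseudogenes had a higher fitted level in dFOXO-null males over both ages, with log2 differences between 0.37 and 0.88, while those of the Stellate transcripts lay between -0.09 and 0.15. For CR46279 the ratio of dFOXO-null to wildtype CPM was 1.63 and 1.25 in the young and 1.74 and 1.67 in the old replicates of the same number, with a log2 difference over both ages of 0.63 (SE 0.43, edgeR adjusted p = 0.821). For Su(Ste):CR42431 these ratios were 1.41 and 0.863 in young and 1.41 and 1.25 in old males. For Ste:CG33237 they were 1.51 and 0.657 in young and 1.29 and 1.14 in old males, so that the young replicates went opposite ways.

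scpr-A and scpr-B had the smallest p-values of the members in old males and in the difference of the age effects between the genotypes. scpr-B stood at 11.5 and 20.95 CPM in young wildtype males, 47.4 and 30.8 in old wildtype males, 13.4 and 37.7 in young dFOXO-null males, and 10.8 and 7.60 in old dFOXO-null males. In old males the log2 difference of dFOXO-null against wildtype was -2.04 for scpr-B (SE 0.77, edgeR adjusted p = 0.422) and -2.03 for scpr-A (SE 0.83, adjusted p = 0.504). Both old wildtype libraries were above both old dFOXO-null libraries for each gene. For age by genotype no member passed the edgeR test, beside 0.0639% of all transcripts. Its unadjusted p was under 0.05 for 2 members, beside 50 of all transcripts. DESeq2 called 0 members with 2 at that limit, beside 1 called and 44 at that limit among all transcripts. The interaction was -2.67 on the log2 scale for scpr-B (SE 1.06, edgeR adjusted p = 1.00) and -2.63 for scpr-A (SE 1.14, adjusted p = 1.00).

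In females, where the comparisons of age and genotype were not tested, the members are given by their values. The median CPM of the 24 Su(Ste) repeats was 146 and 46.05 in young wildtype, 64.5 and 10.7 in old wildtype, 42.1 and 15.6 in young dFOXO-null and 10.8 and 8.38 in old dFOXO-null females. The first of these values is that of the library that stood apart, and replicate 1 was above replicate 2 in all 4 conditions. The median over the Y pseudogenes was 2.17 and 0.622 CPM in young wildtype females and 0 in the 6 other female libraries.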

How the data were processed

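Total small RNA of 19 to 35 nt was cut from gels and sequenced in 16 libraries. The authors trimmed adapters with Trim Galore, filtered out longer reads, mapped the rest to dm6 with Bowtie and counted them per transcript with featureCounts. Versions are not given in the sources used here. The deposited counts are whole numbers of reads with no normalization. The normalized tables and the tables of 21 nt reads were not used. The counts on mature miRNAs and transposons gave other library sizes and the arms.

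CPM were computed per dm6 column total. Age and genotype in males were tested with edgeR 4.0.16 (quasi-likelihood, R 4.3.3) in a single fit to the 16 libraries that gave every one of the 8 conditions its own mean, the column total as library size, transcripts with a mean count of at least 5, and Benjamini-Hochberg adjustment over all 1566. The script was tested on simulated data. Transcript positions and biotypes came from the BDGP6 annotation, the assembly of dm6, which held 2299 of the 2303 identifiers, and names of Y pseudogenes from RefSeq (Release 6). Reads carry no molecular identifiers, and the spread between 2 libraries may be in part technical.

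The members and gene lists were chosen with earlier results of these data known. Genes are named by a rule: the members with the highest male mean, those on a gene list, those at the limits of the rule and those with equal counts, and for each comparison up to 5 members a direction past the threshold or, where none passed, the 2 with the smallest p. Transcripts of a family with like values are given as ranges, and mir-974, mir-975, mir-977 and mir-2498 were named after their values were seen. The labels state that young and old flies of a genotype and replicate were siblings, which pairs the libraries. The correlation of the deviations of paired young and old libraries was 0.0692 in wildtype and 0.387 in dFOXO-null males. Alternatives were the sibling or replicate block, TMM factors, DESeq2 1.42.0, other library sizes, no filter, male libraries only and each male library left out. The fits without wildtype young female replicate 1 were chosen after seeing the data.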

Additional observations from a re-analysis of the deposited data

Results flagged for a closer look

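For scpr-B and scpr-A the age difference went opposite ways in the genotypes: both wildtype sibling pairs were higher in old males and both dFOXO-null pairs lower. The ratios of the old to the young CPM were 4.12 and 1.47 in wildtype and 0.810 and 0.201 in dFOXO-null males for scpr-B, and 4.35 and 1.22 against 0.800 and 0.208 for scpr-A. The interaction of age and genotype was -2.67 on the log2 scale for scpr-B (SE 1.06) and -2.63 for scpr-A (SE 1.14), each with an edgeR adjusted p of 1.00, so neither passed the test. These are adjacent genes with counts that run together and few reads, so they are not 2 independent cases.

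Reads of Y-linked members in a female library were above the level in the other females. In wildtype young female replicate 1 the Y pseudogenes and lncRNA:CR40629 stood at 4.48% of the male library of the same condition and replicate, beside 0.0336% to 0.557% in the other 7 female libraries. Stellate (4.54%), mir-973, mir-974 and mir-976 together (3.95%) and the 9 Su(Ste) repeats with a mean under 10 CPM in the other females (3.31%) stood at similar shares of their male level in that library. The source of these reads was not tested.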

How the results depend on the processing

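The counts of members past the threshold stayed at 0 for the 7 comparisons with TMM factors, the reads on miRNAs and transposons or the spike-in reads as library size, no filter, the male libraries only, each male library left out and wildtype young female replicate 1 left out. They became 6 and 30 for age in wildtype males and over both genotypes with DESeq2, 7 and 13 with a replicate block, and 6 and 13 with a replicate block within genotype, and stayed at 0 for the 5 other comparisons under these 3 settings, and the cause was not tested. Among all 1566 transcripts these 3 settings called 36 and 109, 184 and 242, and 177 and 222, in the same order and in either direction. The replicate block changed no other call of a member. With the reads on miRNAs and transposons as library size the log2 age difference over both genotypes reversed to 0.12 for Su(Ste):CR42431, 0.29 for Ste:CG33237 and 0.50 for CR46279. The rule gave 50 members with a mean count of at least 100, 94 by the median (all 86 among them), 82 when it had to hold in each of 4 strata of age and genotype, 81 per spike-in read, 85 per read on miRNAs and transposons, and 84 to 90 with each library left out. Spike-in totals of 91 to 1970 reads limit the precision of that scaling, and members with few female reads have ratios that rest on a handful of counts.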
